A study of Mus musculus with 14 samples.

Results

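The BCL2 family decides whether a damaged or starved cell opens the outer membrane of its mitochondria and dies by apoptosis, and its transcripts were followed here in cultured mouse bone marrow cells that carry a leukaemia-associated SETBP1 mutant and in the same kind of cells given an inhibitor of histone acetylation. The description covers 10 genes, taken by symbol from the 55367 symbols of each deposited count table. They are the pro-survival genes Bcl2, Bcl2l1, Mcl1, Bcl2a1b and Bcl2a1d, the pore-forming genes Bax and Bak1, and the BH3-only genes Bbc3, Pmaip1 and Bcl2l11. The filter on low counts kept all 10 in the comparison of SETBP1-D868N with luciferase and 9 in that of PF-9363 with DMSO, where Bcl2a1b was too sparse to test.

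Polyadenylated RNA was sequenced from 14 cultures of primary lineage-negative marrow, which is marrow depleted of mature blood lineages, from mice labelled wild-type and grown with SCF, IL6 and IL3. For the first experiment 3 luciferase cultures carried a control lentivirus and 3 SETBP1-D868N cultures carried a lentivirus with the mutant, in which the SET-binding nuclear protein SETBP1 has an asparagine in place of an aspartate. In the second experiment every culture carried SETBP1-D868N, and 4 were kept with the solvent DMSO and 4 with 2.5 µM PF-9363 for 4 days, so no culture without the mutant was given the inhibitor. PF-9363 is a small molecule that blocks MYST histone acetyltransferases. The mutant came from a viral vector and not from the cells' own locus, and cells were not labelled as sorted after transduction. The labels do not say whether replicates came from separate mice, so p-values measure only the spread between these cultures, which may be technical.

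As background, the family works as a balance. BCL2, BCL-XL (from Bcl2l1), MCL1 and A1 (from the Bcl2a1 genes) hold back BAX and BAK, which otherwise assemble into pores that release cytochrome c. The BH3-only proteins BIM (from Bcl2l11), PUMA (from Bbc3) and NOXA (from Pmaip1) are made or stabilised under stress and occupy the groove of the pro-survival proteins. In blood formation MCL1 is required by stem cells and granulocytes, A1 is made mainly by blood cells, and BIM rises when survival cytokines are withdrawn. Much of this control acts on the proteins, which were not measured here.

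The luciferase and SETBP1-D868N libraries held 60147266 to 68730322 counts and the DMSO and PF-9363 libraries 7083731 to 10359093. In CPM (counts scaled to the library total), a gene with 0 counts could be as high as 0.0436 to 0.0499 in the former libraries and 0.290 to 0.424 in the latter. Values below are CPM scaled by TMM, a factor that sets the bulk of genes level between libraries of 1 experiment, and a gene was called at an edgeR adjusted p under 0.05. The experiments differed in RNA input (500 and 100 ng), library preparation and depth, were scaled separately, and were not tested against each other. Mouse Setbp1 had 5 to 6 counts with luciferase, 20 to 24 with SETBP1-D868N, 0 to 2 with DMSO and 0 with PF-9363. Whether the vector's SETBP1 could be counted in these tables is not given in the sources used here, so these counts do not check the labels of the second experiment.

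Luciferase library 1 stood apart from the other libraries of its group. Its chi-square per degree of freedom over genes was 24.6 and 25.2 against luciferase libraries 2 and 3, which had 2.21 between them, while the SETBP1-D868N libraries had 7.50 to 11.8 and those of the second experiment 2.65 to 6.75. This measure rises with depth, so it does not compare the experiments. By Pearson correlation of log2 CPM, luciferase library 1 had 0.9987 and 0.9986 against libraries 2 and 3, which had 0.9992 between them. The SETBP1-D868N libraries had 0.9984 to 0.9988, a range that holds both values, and those of the second experiment 0.9893 to 0.9933. For family genes and genes named from the pathway lists, calls that change without luciferase library 1 are given beside each result. Marker calls and the numbers called in the lists outside the family were not checked without it.

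The cultures were rich in myeloid transcripts, and marker lists moved in both comparisons. Summed neutrophil and promyelocyte markers (10 genes) ran from 25231 to 26266 CPM with luciferase and 17316 to 19846 CPM with SETBP1-D868N, with 4 called higher and 6 lower. Monocyte and macrophage markers (10 genes) summed to 1617 to 1636 CPM and 1253 to 1294 CPM, with 9 called lower and 1 not called, and dendritic cell markers (7 tested of 8) summed to 420 to 455 CPM and 214 to 239 CPM, with 5 lower and 2 not called. Mast cell and basophil markers (10 genes) summed to 5917 to 6134 CPM with luciferase and 6364 to 6493 CPM with SETBP1-D868N. Of them 5 were called higher and 5 lower. With PF-9363 the mast cell and basophil markers went from a sum of 1300 to 1652 CPM to 4966 to 5973 CPM, with 9 called higher and 1 not called. The monocyte and macrophage markers went from 2385 to 2557 CPM to 3636 to 4173 CPM, with 8 higher and 2 lower (Ccr2 and Ly6c2). Of the eosinophil markers, 5 of 5 tested were lower. The neutrophil and promyelocyte markers summed to 19237 to 22492 CPM with DMSO and 16889 to 18373 CPM with PF-9363, with 2 higher, 5 lower and 3 not called. The granule genes Elane, Mpo and Prtn3 of promyelocytes fell from 1453, 2320.3 and 1054 CPM with DMSO to 1.75, 6.35 and 7.31 CPM with PF-9363. The 2 called higher were Ltf (1239 to 2683 CPM) and Cxcr2 (150 to 341 CPM), and S100a8, S100a9 and Ngp were the 3 not called. Stem and progenitor markers (8 tested) summed to 287 to 295 CPM with luciferase and 224 to 241 CPM with SETBP1-D868N, with 3 higher, 4 lower and 1 not called. Kit, the largest part of that sum, fell from 180 to 115 CPM, while Cd34, Mecom and Hlf were the 3 called higher. With PF-9363 (7 tested) the stem and progenitor markers went from 105 to 121 CPM to 216 to 254 CPM, with 3 higher, 1 lower and 3 not called. Most of that sum was again Kit, which rose from 69.8 to 191 CPM and is also a mast cell marker. Cd34, a defining surface protein of progenitors, was detected in every library and was not called with PF-9363 (24.0 and 26.9 CPM). The B cell gene Ms4a1 and the T and NK cell genes Cd3e, Cd3g, Cd8a and Klrb1c were at 0 in all libraries of the second experiment. In bulk RNA, fewer cells of a type and less RNA per cell cannot be told apart, and the part of these shifts in the changes below was not tested.

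SETBP1-D868N left the family transcripts within a narrow range. Of the 10 members, 1 was called higher (Bcl2) and 5 lower (Mcl1, Bcl2a1b, Bcl2a1d, Bbc3 and Bcl2l11), and the other 4 were not called. Without luciferase library 1 the counts were 2 higher and 6 lower, with Bax and Bcl2l1 added. Over all genes, the fits that left out 1 library called 3330 to 3606 higher and 3106 to 3480 lower. The share of all genes called without luciferase library 1 is not given here, so these member counts are not read against it. With all libraries, 47.2% of the 15794 genes tested were called, 24.5% higher and 22.7% lower, and 603 (3.82%) were called with a change of at least 2-fold. No member changed that much. With 6 of 10 called with all libraries, the members' share is near this background and says nothing particular about the family.

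**Figure D1:**
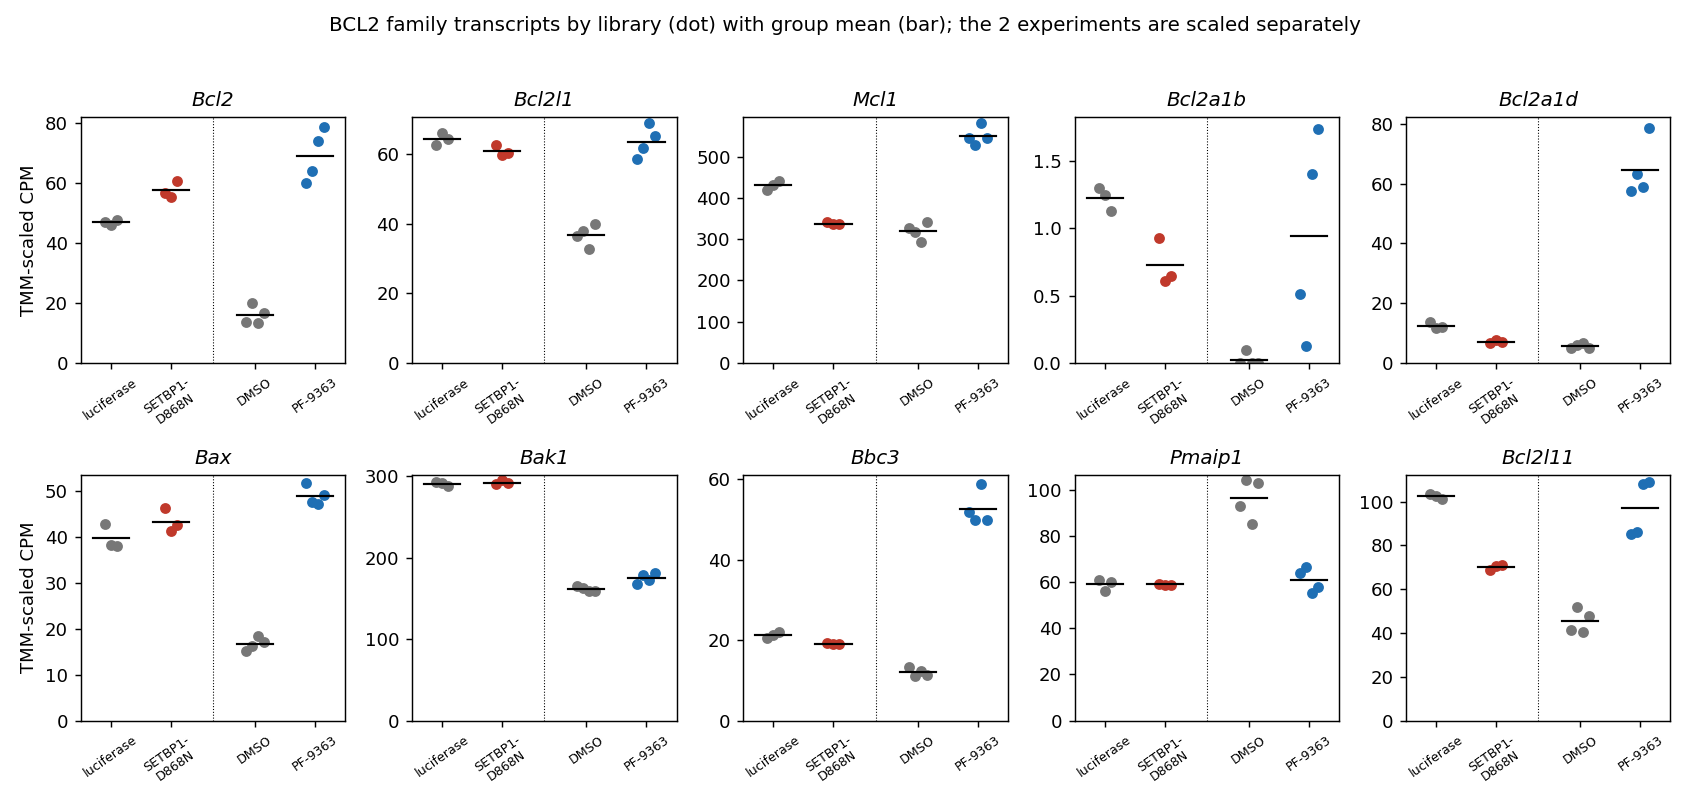
TMM-scaled CPM (vertical axes, linear from 0) of the 10 genes in every library (dots) with the group mean (bar), for luciferase, SETBP1-D868N, DMSO and PF-9363; the dotted line separates the experiments, which were scaled separately. Bcl2l11 fell from 101 to 104 CPM with luciferase to 68.8 to 71.0 CPM with SETBP1-D868N and rose from 40.4 to 51.9 CPM with DMSO to 85.0 to 109 CPM with PF-9363.

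Among the pro-survival genes Bcl2 was called higher. It stood at 47.1, 46.2 and 47.6 CPM with luciferase and 56.8, 55.4 and 60.6 CPM with SETBP1-D868N. The groups did not overlap, and the log2 fold change was 0.29 (SE 0.038, edgeR adjusted p = 5.17e-05, 1.23-fold). Mcl1, whose protein is short-lived, went the other way. It had 419.6, 432 and 441 CPM with luciferase and 341, 337 and 337 CPM with SETBP1-D868N. Every mutant library was below every control library, and Mcl1 fell by 0.35 on the log2 scale (SE 0.025, edgeR adjusted p = 5.46e-07). Bcl2l1 was at 64.3 ± 1.71 (SD, n = 3) and 60.8 ± 1.504 CPM (n = 3) and was not called, with a 95% interval of the log2 fold change from −0.15 to −0.01 and an edgeR adjusted p of 0.0604. It was called lower with RLE scaling (adjusted p = 0.0380), with a mean count of at least 10 (0.0444), without luciferase library 1 (0.0414) and without SETBP1-D868N library 1 (0.0268).

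The Bcl2a1 genes encode A1, and the mouse has several near-identical copies of them on chromosome 9. Bcl2a1d fell from 13.7, 11.6 and 12.1 CPM with luciferase to 6.66, 7.77 and 6.99 CPM with SETBP1-D868N. The groups did not overlap, and the change of −0.80 on the log2 scale (SE 0.080, edgeR adjusted p = 6.71e-06) was the largest of the 10 members in this comparison. Bcl2a1b was sparse, at 1.30, 1.24 and 1.13 CPM against 0.930, 0.612 and 0.648 CPM, and also fell (log2 fold change −0.75, SE 0.19, edgeR adjusted p = 0.0068). In the same libraries the summed monocyte, dendritic cell, neutrophil, and stem and progenitor markers were also lower, and the summed mast cell and basophil markers were higher. A link of the Bcl2a1 genes to any of these lists was not tested.

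Neither pore-forming gene was called. Bak1 was at 293, 291 and 288 CPM with luciferase and 290.3, 295 and 292 CPM with SETBP1-D868N, overlapping groups with a 95% interval of the log2 fold change from −0.04 to 0.06. Bax was at 42.8, 38.3 and 38.1 CPM against 46.2, 41.2 and 42.5 CPM, so that luciferase library 1 lay within the mutant range. The log2 fold change, 0.12 (SE 0.056), had an edgeR adjusted p of 0.0969, and without luciferase library 1 it became 0.18 and was called (adjusted p = 0.0118), as it was with library size alone (0.0183) and with no filter (0.0104).

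The 3 BH3-only genes did not move as a block. Bcl2l11 had 104, 102 and 101 CPM with luciferase and 68.8, 70.8 and 71.0 CPM with SETBP1-D868N. The groups lay far apart for their spread, and Bcl2l11 fell by 0.54 on the log2 scale (SE 0.028, edgeR adjusted p = 4.86e-08, 1.46-fold lower). Bbc3 had 20.6, 21.2 and 22.0 CPM against 19.4, 18.9 and 19.0 CPM. This was a small change (log2 fold change −0.15, SE 0.044, edgeR adjusted p = 0.0126), and the call was lost when scaling by library size alone (adjusted p = 0.0761) or without luciferase library 3 (adjusted p = 0.0606). Pmaip1 was at 61.1, 56.3 and 60.1 CPM against 59.1, 59.0 and 58.9 CPM. Its groups overlapped, and the 95% interval of its log2 fold change ran from −0.08 to 0.07.

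PF-9363 gave larger changes, and most members were higher. Of the 9 members tested, 7 were called higher (Bcl2, Bcl2l1, Mcl1, Bcl2a1d, Bax, Bbc3 and Bcl2l11), 1 lower (Pmaip1) and 1 was not called (Bak1). Over all 13456 genes tested, 76.0% were called, 36.6% higher and 39.4% lower, and 4559 (33.9%) were called with at least a 2-fold change. With 8 of 9 called in either direction, the members' share is again near the background. By direction 7 of 9 were higher against 36.6%, in members chosen with earlier results of these data known, and this was not tested. Of the tested members, 5 rose by at least 2-fold (Bcl2, Bcl2a1d, Bax, Bbc3 and Bcl2l11). The 33.9% counts rises and falls together, and the share of rises alone is not given here. The groups did not overlap in 9 of 9 tested members, against 70.3% of all genes tested, and in the first comparison in 7 of 10, against 56.7%. Scaling by library size alone moved the median of all genes by −0.23 in this comparison (0.05 in the first). It changed the split of called genes from 4921 higher and 5307 lower to 3775 and 6653, and in the first comparison from 3869 and 3579 to 4905 and 2997. The 7 members called higher and Pmaip1 were called in the same direction under either scaling.

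**Figure D2:**
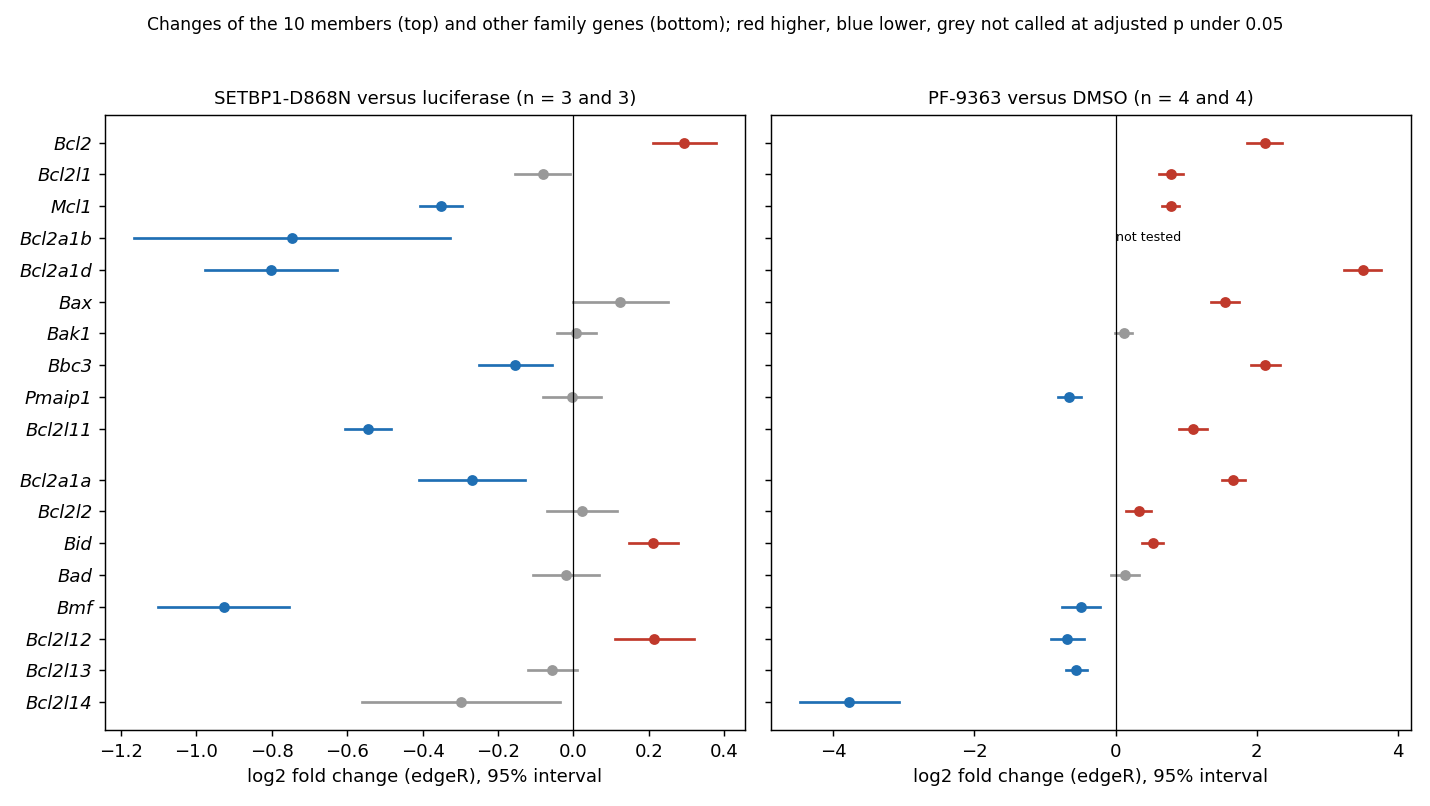
Log2 fold changes (dots) with 95% intervals (lines) from edgeR for the 10 members (top) and 8 other family genes (bottom), SETBP1-D868N versus luciferase on the left and PF-9363 versus DMSO on the right, on different horizontal scales; red marks genes called higher, blue lower and grey not called. The members' changes span −0.80 to 0.29 on the left and −0.66 to 3.50 on the right, and Bcl2a1b was not tested on the right.

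All 4 pro-survival genes that could be tested rose with PF-9363. Bcl2 had 13.8, 20.2, 13.4 and 16.8 CPM with DMSO and 60.1, 63.9, 74.1 and 78.7 CPM with PF-9363. Every treated library was far above every control library, and the log2 fold change was 2.11 (SE 0.12, edgeR adjusted p = 2.66e-13, 4.31-fold). Mcl1 had 327, 318, 294 and 343 CPM against 545, 528, 581 and 544 CPM. Its rise of 0.78 on the log2 scale (SE 0.061, edgeR adjusted p = 2.23e-12) was 1.72-fold. Bcl2l1 rose by as much, from 36.6, 38.0, 32.9 and 40.01 CPM to 58.7, 61.6, 68.8 and 65.1 CPM (log2 fold change 0.78, SE 0.084, edgeR adjusted p = 1.93e-09). Its counts do not separate the messengers of BCL-XL, which protects cells, and of the shorter BCL-XS, which does not.

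Bcl2a1d showed the largest rise of the family. It had 4.96, 6.09, 6.84 and 4.90 CPM with DMSO and 57.6, 63.2, 58.8 and 78.5 CPM with PF-9363. Every treated library was far above every control library, and the rise on the log2 scale was 3.50 (SE 0.13, edgeR adjusted p = 1.24e-19, 11.3-fold). Bcl2a1b had counts of 0, 1, 0 and 0 with DMSO and 5, 1, 9 and 16 with PF-9363. The DMSO counts lie under the 3 counts that a count of 0 allows, so no fold is given. With no filter on low counts, 8 members were called higher, Bcl2a1b among them. The sums of the mast cell and basophil, monocyte and macrophage, and stem and progenitor lists were higher in the same PF-9363 libraries. Those of the neutrophil and promyelocyte list and of the eosinophil list were lower, and a link to any list was not tested. In the monocyte and macrophage list 8 genes were called higher. The 2 called lower were the monocyte genes Ccr2 (773 to 134 CPM) and Ly6c2 (1206 to 308 CPM).

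The pair of pore-forming genes parted. Bax had 15.1, 16.3, 18.4 and 17.2 CPM with DMSO and 51.7, 47.7, 47.2 and 49.2 CPM with PF-9363, close within each group and far apart between them. The log2 fold change was 1.55 (SE 0.096, edgeR adjusted p = 1.30e-14, 2.93-fold). Bak1 had 165, 162, 159.8 and 159.8 CPM against 168, 179, 173 and 181 CPM, a narrow separation of the groups. It was not called (log2 fold change 0.12, 95% interval 0.00 to 0.24, edgeR adjusted p = 0.0701), was called higher with RLE scaling (adjusted p = 0.0306), with DESeq2 (0.0225) and without PF-9363 library 1 (0.0487), and turned to −0.11 with library size alone.

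The BH3-only genes also parted. Bbc3 had 13.3, 11.2, 12.3 and 11.4 CPM with DMSO and 51.7, 49.9, 58.7 and 49.8 CPM with PF-9363. This gene of PUMA, a target of p53 that binds every major pro-survival protein, rose 4.35-fold (log2 fold change 2.12, SE 0.10, edgeR adjusted p = 3.93e-17). Bcl2l11 had 41.4, 51.9, 40.4 and 47.5 CPM against 85.0, 86.0, 108 and 109 CPM. The treated libraries fell into a lower and a higher pair, all above every DMSO library, and the gene rose 2.14-fold (log2 fold change 1.10, SE 0.097, edgeR adjusted p = 1.11e-09). Pmaip1, whose protein NOXA binds MCL1 and A1, was the member that fell. It had 93.1, 104, 85.3 and 103 CPM with DMSO and 64.1, 66.8, 55.4 and 57.7 CPM with PF-9363, a change of −0.66 on the log2 scale (SE 0.079, edgeR adjusted p = 1.47e-08, 1.58-fold lower).

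Set side by side, the comparisons share no libraries, so their calls come from separate cultures. Bcl2 was called higher in both. Mcl1, Bcl2a1d, Bbc3 and Bcl2l11 were called lower with SETBP1-D868N and higher with PF-9363 in cells that carry SETBP1-D868N. Over all genes tested, 22.7% were called lower in the first comparison and 36.6% higher in the second. The share with both calls is not given here, so the pattern is not read as particular to the family. Bcl2l1 and Bax were called with PF-9363, both higher, and not with SETBP1-D868N, Pmaip1 likewise but lower, and Bak1 was called in neither. In size the PF-9363 changes of these genes exceeded the SETBP1-D868N changes, for example 2.12 against −0.15 for Bbc3 and 3.50 against −0.80 for Bcl2a1d on the log2 scale. The difference between the comparisons was not tested, since the contrasts, the library preparation and the depth all differ.

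Because the family acts through pairs of partners, the log2 ratio of counts of 2 members was also taken within each library, where the scaling of libraries cancels. These ratios have no test, and a ratio of counts also carries the lengths of both transcripts, so only its difference between groups is read. The ratio of Bcl2 to Bcl2l11 was −1.14, −1.15 and −1.09 with luciferase and −0.28, −0.36 and −0.23 with SETBP1-D868N. It was −1.58, −1.36, −1.59 and −1.50 with DMSO and −0.50, −0.43, −0.55 and −0.47 with PF-9363. It was thus higher without overlap in both comparisons, by 0.84 and 1.03, although Bcl2l11 itself fell in the first and rose in the second.

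The ratio of Mcl1 to Pmaip1, a pro-survival gene and the gene of its selective antagonist, went in opposite directions. It was 2.78, 2.94 and 2.88 with luciferase against 2.53, 2.51 and 2.52 with SETBP1-D868N, and 1.81, 1.61, 1.78 and 1.74 with DMSO against 3.09, 2.98, 3.39 and 3.24 with PF-9363. The group means differed by −0.35 and 1.44, with no overlap in either. The ratio of Bcl2l11 to Pmaip1, both BH3-only, moved by −0.54 and 1.75, again with no overlap. The proportion between these BH3-only messengers thus stood apart between the groups of libraries as well, which was not tested. How often other pairs of genes separate is not given here. Of single genes tested, 56.7% did not overlap in the first comparison and 70.3% in the second.

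The other pairs had no common direction. The ratio of Bcl2l1 to Bbc3 had means of 1.60 ± 0.045 (SD, n = 3) and 1.67 ± 0.019 (n = 3) with luciferase and SETBP1-D868N, which did not overlap, and was 1.61 ± 0.20 (n = 4) with DMSO and 0.28 ± 0.089 (n = 4) with PF-9363, again without overlap. The ratio of Bcl2 to Bax overlapped between groups in both comparisons, with differences of 0.17 and 0.57. Mcl1 to Bcl2l11 differed by 0.19 without overlap in the first comparison and by −0.31 with overlap in the second. Among pro-survival genes, Bcl2 gained on Bcl2l1 by 0.37 with SETBP1-D868N and by 1.34 with PF-9363, without overlap in either.

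**Figure D3:**
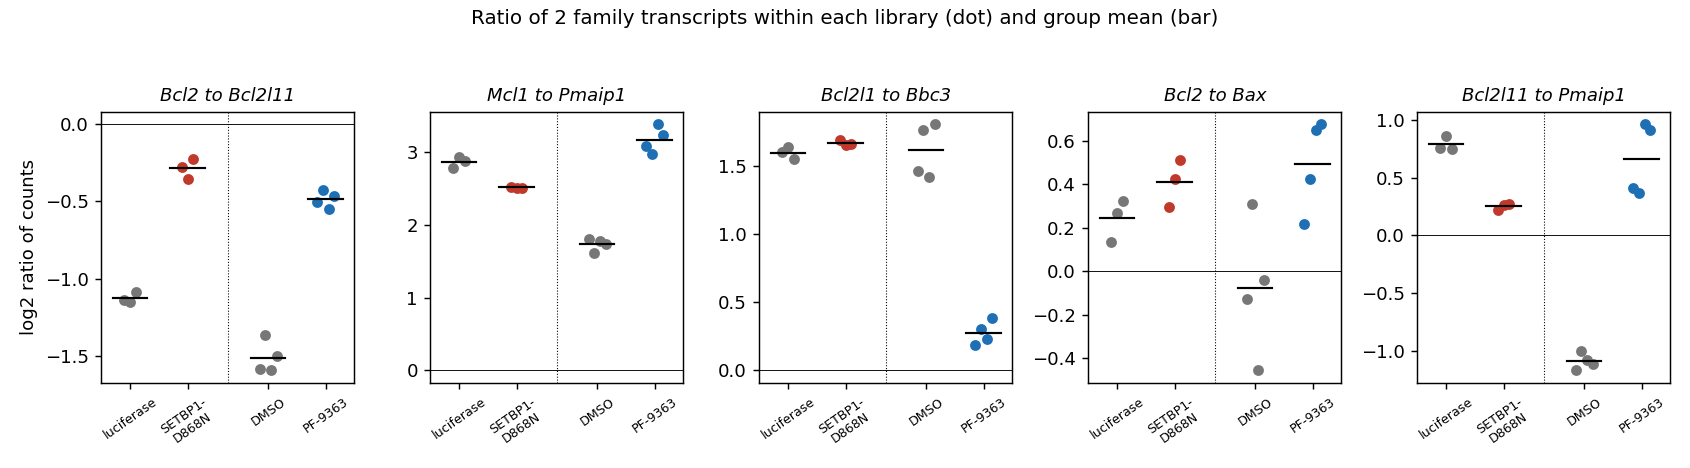
Log2 ratio of the counts of 2 family genes (vertical axes) in every library (dots) with the group mean (bar), for 5 pairs in luciferase, SETBP1-D868N, DMSO and PF-9363 cultures. The ratio of Bcl2 to Bcl2l11 is higher with SETBP1-D868N than with luciferase and with PF-9363 than with DMSO, and that of Mcl1 to Pmaip1 is lower with SETBP1-D868N and higher with PF-9363.

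To compare genes with each other, CPM was divided by the length in kilobases of the gene's merged exons in GENCODE. With luciferase, Mcl1 at 126 ± 3.17 and Bak1 at 121 ± 1.197 CPM per kilobase (SD, n = 3) stood first, followed by Bax at 25.2 and Pmaip1 at 21.7. Bcl2a1d, Bcl2a1a and Bcl2l1, between 14.03 and 14.4, did not differ beyond their spread, and Bcl2l11 at 12.7, Bbc3 at 10.02, Bcl2 at 5.13 and Bcl2a1b at 1.497 came last. With SETBP1-D868N the first 2 places changed, with Bak1 at 121 ± 1.03 above Mcl1 at 98.9 ± 0.69 CPM per kilobase. Bcl2 was the lowest of the pro-survival genes other than Bcl2a1b in every group, also where it had risen.

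In the second experiment the order with DMSO was Mcl1 at 93.7 ± 5.97, Bak1 at 67.2 ± 1.03, Bcl2a1a at 38.0 ± 2.32 and Pmaip1 at 35.3 ± 3.23 CPM per kilobase (SD, n = 4), of which the last 2 overlapped. Bax followed at 10.6, Bcl2l1 at 8.04, Bcl2a1d at 6.60, Bbc3 at 5.67, Bcl2l11 at 5.64 and Bcl2 at 1.75, and Bbc3 and Bcl2l11 did not differ beyond their spread. With PF-9363 Mcl1 stayed first at 161 ± 6.58, but Bcl2a1a at 121 ± 7.38 and Bcl2a1d at 74.8 ± 11.2 came next, the latter overlapping Bak1 at 72.9 ± 2.45 CPM per kilobase. Bax was then at 31.1, Bbc3 at 24.7, Pmaip1 at 22.3, Bcl2l1 at 13.9, Bcl2l11 at 12.1 and Bcl2 at 7.56. Pmaip1 ranked 4 with DMSO and 7 with PF-9363. The merged exons include long untranslated ends, which for Bcl2 (9157 bases) and Bcl2l11 (8029 bases) lower the value if shorter messengers dominate.

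**Figure D4:**
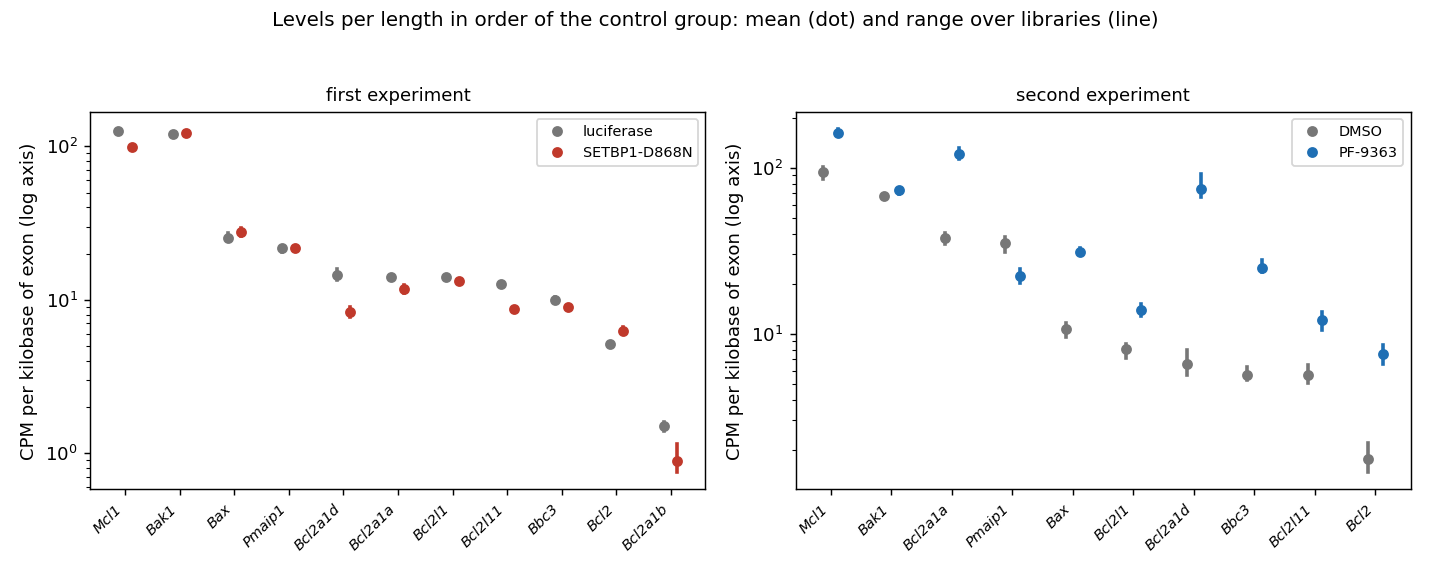
Levels as CPM per kilobase of exon (log axis) of the family genes, ordered by the control group, with the mean (dot) and the range over libraries (line), for the first experiment on the left and the second on the right. Mcl1 and Bak1 lead in luciferase and DMSO cultures, while with PF-9363 Bcl2a1a at 121 and Bcl2a1d at 74.8 CPM per kilobase reach the level of Bak1 at 72.9 or pass it.

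The Bcl2a1 values depend on telling the copies apart. In the GRCm38 build Bcl2a1d lies at chr9:88723285-88731914 on the minus strand, Bcl2a1a at chr9:88956900-88962419 and Bcl2a1b at chr9:89199209-89207827, both on the plus strand. Their coding sequences have 519 bases each and differ at 11 bases between Bcl2a1a and Bcl2a1b (97.88% identical), 7 between Bcl2a1a and Bcl2a1d (98.65%) and 6 between Bcl2a1b and Bcl2a1d (98.84%). Of the 12 positions at which any of them differ, 7 fall in the first 180 coding bases, which are shown from GENCODE M21 with those positions in capitals because a read must cross a differing position to name the copy.
Bcl2a1a: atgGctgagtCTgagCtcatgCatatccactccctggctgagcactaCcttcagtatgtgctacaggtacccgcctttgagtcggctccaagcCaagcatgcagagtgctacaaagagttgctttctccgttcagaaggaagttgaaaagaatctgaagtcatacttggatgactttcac
Bcl2a1b: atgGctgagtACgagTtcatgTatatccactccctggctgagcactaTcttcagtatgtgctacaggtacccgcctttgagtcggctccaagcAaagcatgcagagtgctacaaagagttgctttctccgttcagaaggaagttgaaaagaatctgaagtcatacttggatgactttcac
Bcl2a1d: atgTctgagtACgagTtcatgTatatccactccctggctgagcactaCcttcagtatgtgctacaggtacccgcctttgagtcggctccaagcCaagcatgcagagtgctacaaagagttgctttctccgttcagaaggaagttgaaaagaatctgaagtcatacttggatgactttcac

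Within the annotated transcripts, 31.0% of the 50-base windows of Bcl2a1a occur in no other gene, 20.8% of those of Bcl2a1b and 20.5% of those of Bcl2a1d, and for 150-base windows the shares are 71.8%, 58.1% and 69.75%. The read length and the treatment of reads that match several copies are not given in the sources used here, so the split of A1 counts between copies is uncertain. The sum of Bcl2a1a, Bcl2a1b, Bcl2a1c and Bcl2a1d is less exposed to it. It was 26.8, 23.8 and 25.1 CPM with luciferase and 16.7, 18.6 and 17.0 CPM with SETBP1-D868N, and fell by 0.53 on the log2 scale (SE 0.057, edgeR adjusted p = 1.22e-05). In the second experiment it was 36.5, 34.6, 39.8 and 36.3 CPM with DMSO and 151, 160.4, 159 and 188 CPM with PF-9363, a rise of 4.47-fold (log2 fold change 2.16, SE 0.077, edgeR adjusted p = 3.68e-20). Both directions thus hold for the summed copies, with a smaller rise than the 11.3-fold of Bcl2a1d alone.

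The make-up of the A1 counts shifted as well. Bcl2a1d made up 51.0%, 48.6% and 48.3% of them with luciferase and 39.9%, 41.7% and 41.1% with SETBP1-D868N. With DMSO it made up 13.6%, 17.6%, 17.2% and 13.5%, and with PF-9363 38.1%, 39.4%, 37.1% and 41.9%, without overlap in either comparison. Bcl2a1a held most of the rest, and Bcl2a1b no more than 5.57% in any library. Bcl2a1c held at most 0.134% with luciferase or SETBP1-D868N and had 0 counts with DMSO or PF-9363.

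**Figure D5:**
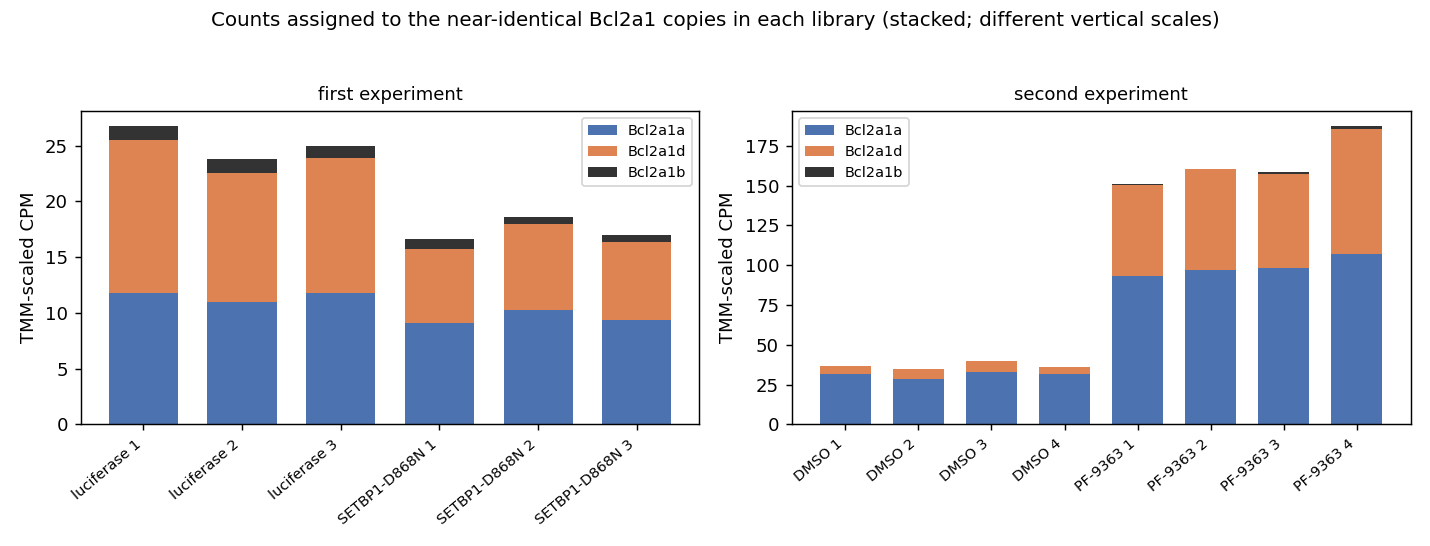
Stacked TMM-scaled CPM (vertical axes, from 0, on different scales) assigned to Bcl2a1a, Bcl2a1d and Bcl2a1b in each library of the first (left) and second (right) experiment. The stacks are lower with SETBP1-D868N and higher with PF-9363, and the part of Bcl2a1d grows from 13.5% to 17.6% of all copies with DMSO to 37.1% to 41.9% with PF-9363.

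The copies also share their upstream sequence, which is shown because Bcl2a1d and Bcl2a1a were called in the same direction in both comparisons. The windows come from RefSeq (GRCm38.p6), run 5′ to 3′ on the gene's strand and end before the gene's first annotated exon base. Capitals mark the letters GAGGAAGT, a core bound by PU.1, a transcription factor of myeloid cells. The first window is chr9:88731915-88732100 on the minus strand and the second chr9:88956670-88956899 on the plus strand.
Bcl2a1d: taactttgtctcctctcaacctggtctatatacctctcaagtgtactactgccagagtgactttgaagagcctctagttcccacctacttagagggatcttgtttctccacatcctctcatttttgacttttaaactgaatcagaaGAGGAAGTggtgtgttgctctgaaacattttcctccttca
Bcl2a1a: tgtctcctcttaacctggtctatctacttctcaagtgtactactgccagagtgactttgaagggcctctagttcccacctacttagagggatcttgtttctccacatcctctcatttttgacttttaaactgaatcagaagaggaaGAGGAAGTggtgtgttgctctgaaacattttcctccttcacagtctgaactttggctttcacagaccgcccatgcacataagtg

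These letters, searched on both strands in the 250 bases upstream of each start, were found in all 4 Bcl2a1 copies, in Bak1 and at 1 of 2 starts of Bad, against 2.44% of 32851 windows of all genes. The family search covered no window of Pmaip1, Bik or Bcl2l10, for these letters or for the E-box below. Bcl2a1a and Bcl2a1d share an unbroken run of 84 bases and Bcl2a1a and Bcl2a1b one of 174, so the copies are not independent cases. The E-box CACGTG, known to be bound by MYC and its partners, was found for Bax and for 1 of 3 Bbc3 starts, against 6.02% of all windows. The window of Bcl2 is 74.8% G and C with 36 CpG pairs, against medians of 52.4% and 6, and those of the Bcl2a1 copies are 44.8% to 48% G and C. A match in a window is a description of its letters and no measure of binding, which was not assayed.

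Of the 14 other family genes, 9 were tested with SETBP1-D868N, where 2 were higher, 2 lower and 5 not called, with a median log2 fold change of −0.02 beside 0.00 over all genes. The BH3-only gene Bmf, whose protein responds to loss of attachment and to cytoskeletal stress, had the largest log2 fold change in size of the family genes tested. It went from 17.3, 17.3 and 16.1 CPM to 9.10, 7.72 and 9.84 CPM without overlap (log2 fold change −0.93, SE 0.079, edgeR adjusted p = 3.01e-06). Bcl2a1a, the A1 copy outside the 10 members, also fell (−0.27, edgeR adjusted p = 0.00446). Bid, whose protein links death receptors to mitochondria once caspase-8 has cut it, rose from 59.0 ± 0.77 to 68.3 ± 1.16 CPM (log2 fold change 0.21, edgeR adjusted p = 9.97e-05), and Bcl2l12 rose by 0.21 (edgeR adjusted p = 0.00295). Bcl2l2, which encodes the pro-survival BCL-W, Bad, Bik, Bcl2l13 and Bcl2l14 did not pass, at 0.02, −0.02, 0.66, −0.06 and −0.30 on the log2 scale in that order, and Bik was called without SETBP1-D868N library 2 (0.91, adjusted p = 0.0134).

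With PF-9363, 8 of the other family genes were tested, 3 of them higher, 4 lower and 1 not called (Bad, 0.13), with a median of −0.18 beside −0.04 over all genes. Bcl2a1a rose 3.18-fold, from 28.4 to 33.0 CPM with DMSO to 92.9 to 107 CPM (log2 fold change 1.67, SE 0.077, edgeR adjusted p = 1.69e-17). Bid rose by 0.52 and Bcl2l2 by 0.33 on the log2 scale, the latter not called with library size alone (0.10, adjusted p = 0.305). Bmf fell from 20.6, 25.1, 17.5 and 26.0 CPM to 17.2, 16.2, 12.9 and 16.6 CPM (log2 fold change −0.49, SE 0.13, edgeR adjusted p = 0.00134), so it was called lower in both comparisons. Bcl2l12 and Bcl2l13, whose protein is a mitochondrial membrane receptor for mitophagy, fell, with log2 fold changes of −0.68 and −0.55. Bcl2l14 went from 5.95, 8.78, 7.49 and 6.44 CPM to 0.206, 0.258, 0.467 and 1.08 CPM. This was a fall of 3.77 on the log2 scale (SE 0.34, edgeR adjusted p = 5.92e-11). Its PF-9363 counts were only 2, 2, 3 and 10, near the 3 counts that a count of 0 allows. The direction is clear but the size of the fall is uncertain, and leaving out 1 library gave −4.54 to −3.46. Bcl2l10 was at 0 in all 14 libraries, Hrk and Bcl2a1c were at 0 throughout the second experiment, and Bok, Bcl2l15 and, in the second experiment, Bik were too sparse to test.

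Downstream of the pores, the apoptosome, caspases and released mitochondrial proteins form a list of 14 genes. For this list and those below, the shares called over all genes tested were 24.5% higher and 22.7% lower with SETBP1-D868N. With PF-9363 they were 36.6% higher and 39.4% lower, and the lists were not tested as sets. With SETBP1-D868N 7 were higher, 4 lower and 3 not called (median log2 fold change 0.09, beside 0.00 over all genes). Cycs, the gene of cytochrome c, rose from 56.6 ± 1.22 to 68.9 ± 4.07 CPM (log2 fold change 0.28, edgeR adjusted p = 0.000142), and Htra2 rose by as much (0.28). Casp6 fell (−0.62), as did Apaf1, the scaffold of the apoptosome (−0.21). With PF-9363 4 were higher, 8 lower and 2 not called (median −0.42, beside −0.04). Casp9, the initiator caspase of the apoptosome, rose by 0.56, Vdac2, whose protein holds BAK at mitochondria, by 0.56 and Casp6 by 0.53, while the changes of Endog (−1.57), Casp2 (−1.29) and Vdac1 (−1.21) were downward.

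The inhibitors of apoptosis proteins block caspases or signal from receptors, and 8 genes were listed. With SETBP1-D868N 5 were lower and 3 were not called (median −0.15), among them Birc3 (−0.46), Birc2 (−0.24) and Xiap (−0.16), all with edgeR adjusted p at or below 0.00108. With PF-9363 6 were higher and 2 lower (median 0.51), beside 36.6% and 39.4% of all genes tested. Birc3 rose from 52.7 ± 0.96 to 140.4 ± 7.36 CPM (SD, n = 4; log2 fold change 1.41, edgeR adjusted p = 2.78e-17), and Naip2 rose by 0.73 and Xiap by 0.54. Birc5, which encodes survivin and is made by dividing cells, fell by 2.57, and Birc2 fell by 0.22 with a call that was lost with RLE scaling, with DESeq2 and without DMSO library 4 or PF-9363 library 1, 2 or 3 (adjusted p 0.0511 to 0.104).

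The death receptor arm reaches the family through Bid. Of 9 genes tested with SETBP1-D868N, 4 were lower and 5 not called (median −0.02), with Fas at −0.37, Tnfrsf1a at −0.28 and Cflar, the inhibitor of caspase-8, at −0.28. With PF-9363 3 were higher, 2 lower and 4 not called (median −0.02), beside 36.6% higher and 39.4% lower of all genes tested. Fas rose from 10.4, 11.3, 11.9 and 12.97 CPM to 58.1, 47.2, 47.9 and 58.4 CPM (log2 fold change 2.19, SE 0.11, edgeR adjusted p = 7.86e-17), Cflar by 1.39 and Ripk1 by 0.70, and Casp8 fell by 0.40. Fas and Cflar, like Mcl1 and Bcl2l11, were thus called lower in the first comparison and higher in the second. Over all genes tested, 22.7% were lower in the first and 36.6% higher in the second, and the share with both calls is not given here.

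Enzymes that mark MCL1 and its relatives for turnover were listed because the amount of these proteins depends on them. With SETBP1-D868N 3 of 6 tested were lower and 3 not called (median −0.20). Fbxo10, a ligase subunit acting on BCL2, fell from 11.1 ± 0.23 to 5.76 ± 0.22 CPM (log2 fold change −0.95, edgeR adjusted p = 3.22e-07). Fbxw7, which directs MCL1 to the proteasome, fell by 0.14, and Gsk3b fell by 0.12, both calls lost with library size alone (adjusted p = 0.0793 and 0.155), and that of Gsk3b also without luciferase library 1 (adjusted p = 0.122), luciferase library 2 (0.0513) or SETBP1-D868N library 1 (0.0898). With PF-9363 5 of 7 were higher and 2 lower (median 0.70), beside 36.6% and 39.4% of all genes tested. Fbxw7 rose by 1.28, Gsk3b by 1.10 and Usp9x, which removes ubiquitin from MCL1, by 0.70, and Btrc fell (−0.90).

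Transcription factors known to act on family genes gave 4 higher, 7 lower and 5 not called of 16 with SETBP1-D868N (median −0.08). Myb rose from 196 ± 5.57 to 347 ± 13.9 CPM (log2 fold change 0.82, edgeR adjusted p = 8.96e-09), Myc by 0.48 and Trp53 by 0.31. Mitf, a factor of mast cells and melanocytes that acts on Bcl2, fell (−0.62), as did Foxo1 (−0.55) and Foxo3, which acts on Bcl2l11 and Bbc3 (−0.26). With PF-9363 10 were higher, 4 lower and 2 not called (median 0.46), beside 36.6% higher and 39.4% lower of all genes tested. Ddit3, the stress factor CHOP, rose from 16.3 to 22.7 CPM with DMSO to 163 to 183 CPM (log2 fold change 3.11, SE 0.084, edgeR adjusted p = 8.17e-23), Mitf by 2.05 and Rela by 0.90. The log2 fold changes of Myb, Myc and E2f1 were −2.71, −2.55 and −0.40.

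The targets of p53 outside the family are a reference for Bbc3, Bax and Pmaip1, which are p53 targets too. With SETBP1-D868N 2 of 11 were higher, 3 lower and 6 not called (median −0.02), with Aen at 0.43, Ccng1 at 0.12, Trp53inp1 at −0.52, Perp at −0.25 and Cdkn1a, which stops the cell cycle, at −0.24. With PF-9363 9 of 10 tested were higher, beside 36.6% of all genes tested, and 1 was not called. The median log2 fold change was 1.33, beside −0.04 over all genes. Phlda3 rose by 3.30 from 0.885 ± 0.70 CPM, Sesn2 by 1.86 and Perp by 1.62. Of the p53 targets in the family, Bbc3 and Bax were called higher in the same libraries, as given above, and Pmaip1 lower.

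For each member called in both comparisons without overlap, the 3 genes with the most similar pattern were found by the Euclidean distance over 14 libraries of log2(CPM + 1) relative to the control mean, among 12367 genes. Nearest to Bcl2 were Slc9a9 (0.521), Hid1 (0.521) and Prkca (0.549), where the median gene was at 4.30. Among those nearest to Mcl1 were Ubl3 (0.187) and Akna (0.211), with a median of 2.08. Tarm1 (0.492), Csf1 (0.532) and Ms4a4a (0.593) lay nearest to Bcl2a1d, with a median of 6.83. Csf1 encodes a growth factor of macrophages, and its log2 fold changes were −0.73 and 3.17 beside −0.80 and 3.50 for Bcl2a1d. Bbc3 was closest to Ctsz (0.248), Mob3c (0.291) and Ptgir (0.358), and Bcl2l11 to Cxcr2 (0.304), Sqor (0.332) and Dop1b (0.337). Cxcr2, a chemokine receptor of neutrophils, changed by −0.52 and 1.18 where Bcl2l11 changed by −0.54 and 1.10. These genes were picked for this likeness, so their similar changes are no separate result. The distance weighs the larger PF-9363 changes most, and not every match was close. Hid1 changed by 0.52 and 3.91 and Prkca by 0.016 and 2.21, where Bcl2 changed by 0.29 and 2.11.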

How the data were processed

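Polyadenylated RNA of 14 libraries was compared within each of 2 experiments. The values are raw counts for each gene symbol as the authors deposited them, in a table per experiment. Per the submitters' processing notes STAR, DESeq2 and the build GRCm38 or mm10 were used, with no version or role given. Counting program, strand handling, read length and treatment of multiply matching reads are not given in the sources used here. Overlapping genes may therefore share counts (Bcl2 with D630008O14Rik, Bak1 with Ggnbp1, Bax with Gm45808, Bcl2a1b with Gm29094). The overlaps of Bax and Bcl2a1b are on the same strand. Groups were taken from the sample titles. With R 4.3.3 and edgeR 4.0.16, genes were filtered by filterByExpr (minimum count 10, minimum total 15), scaled by TMM and tested with the quasi-likelihood test (robust estimation, group as the factor), with Benjamini-Hochberg adjustment over all genes tested. Standard errors are the absolute log2 fold change over the square root of F. Alternatives were RLE scaling, library size alone, no filter beyond 1 count, DESeq2 1.42.0, a mean count of 10 or more, voom of limma 3.58.1, no robust estimation, a replicate block, summed Bcl2a1 copies and leaving out each library. GENCODE M21 (53292 symbols matched) gave lengths and coding sequences. The limit that 0 counts allow is 3 divided by a library's total, and covers counting error only. The members and the gene lists were chosen with earlier results of these data known. Of each list outside the family, the text names up to 3 genes per direction with the largest change among those called, without overlap and with a mean of 5 CPM or more in the group where it is higher. Some genes that this rule names are not reported here. Scripts were tested on simulated data. Libraries of 1 group differed by more than sampling noise, and luciferase library 1 stood apart in its group.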

Additional observations from a re-analysis of the deposited data

How the results depend on the processing

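With PF-9363, 149 of the alternative fits of members kept direction and call, 3 added a call (Bak1), and with library size alone Bak1 (−0.113) and Bad (−0.0999) reversed. With SETBP1-D868N 133 kept both, 2 lost a call (Bbc3), 8 added one (Bcl2l1 and Bax) and 7 reversed, all of Bak1 or Pmaip1, which were near 0. Reversed values were Bak1 −0.000288 with RLE and −0.000314 with DESeq2, and Pmaip1 0.0443 and Bad 0.0287 with library size alone. Leaving out 1 library gave −0.00454 to 0.0145 for Bak1, −0.0394 to 0.0204 for Pmaip1 and −0.0115 to 0.0483 for Bcl2l2. The number of members called higher with SETBP1-D868N was 2, with Bax added to Bcl2, with library size alone, with no filter beyond 1 count and with the replicate block, and 1 to 2 when 1 library was left out. The cause of these shifts was not tested. Replicate numbers did not pair the libraries: deviations of libraries with the same number correlated at −0.229 to −0.0415 for SETBP1-D868N and luciferase and at −0.0374 to 0.0179 for PF-9363 and DMSO. The replicate block changed the calls of Bax (0.125, edgeR adjusted p = 0.0273) and Gsk3b (−0.121, adjusted p = 0.0851) with SETBP1-D868N. It changed no other call of a family gene or of a gene named from the lists, and gave 7 members higher and 1 lower with PF-9363. The remaining genes of the lists and the markers were not checked with it. At the lower depth of the second experiment Bcl2a1b could not be tested under the filter.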
